A study of Drosophila simulans and Drosophila sechellia and Drosophila simulans x Drosophila sechellia with 72 samples.

Results

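IM2 and IM4 are genes for small immune-induced peptides, and they are 2 of the 7836 genes in the expression table of this series. They were taken by name, as the rows IM2 and IM4, and were selected on their FPKM in the parental libraries, which are higher in Drosophila sechellia than in Drosophila simulans. The species difference is therefore given below as a description, with no test. Both genes passed the filter on low values in each fit of libraries.

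As background from Drosophila melanogaster, immune-induced molecules are short secreted peptides that the fat body, the insect counterpart of liver and adipose tissue, releases into the haemolymph after infection. The Toll pathway, which responds to fungi and Gram-positive bacteria, drives many of them. IM2 belongs to the short Bomanins, a family needed for resistance to fungi and some bacteria. IM4 was later renamed Daisho and acts against filamentous fungi. Both have close relatives in that genome, and how reads shared between such copies were counted here is not stated, so their levels carry that uncertainty.

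RNA was sequenced from D. sechellia, from D. simulans and from hybrids of the 2 species, as adults and as larvae. D. sechellia is the island specialist on noni fruit, whose main toxic compound is octanoic acid, and D. simulans is its generalist relative. Parents and offspring were each kept on food with octanoic acid or on standard food, which gives 4 media histories. A history is written as the previous and then the current medium, with O for octanoic acid and S for standard medium, and OS means that only the parents had been on octanoic acid. Each of the 24 groups of stage, genotype and history had 3 biological replicates, 72 libraries in all, and each library came from a pool of 10 whole animals. No infection is part of the labels. All groups shared a temperature of 20 °C and a cycle of 16 h light and 8 h dark. The labels name no strain, no age of the adults and no direction of the cross. In RNA from whole animals, more cells of a type and more RNA per cell cannot be told apart.

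Levels are in FPKM, fragments scaled to the length of the transcript and to the mapped fragments of the library. Unless FPKM is named, differences are log2 differences of FPKM + 1. The columns did not share 1 scale. A D. sechellia adult column summed to 1090157 to 1454241 FPKM, against 483241 to 515024 for a D. simulans adult column. In larvae the sums were 1137758 to 1515240 in D. sechellia, against 442983 to 543443 in D. simulans. The median difference between the species over all genes was accordingly 0.72 in adults and 0.56 in larvae, and 0.07 and 0.04 after median-ratio rescaling of the libraries. The yolk protein gene Yp1 was at 3919 to 15389 FPKM in parental adults. The larval libraries are labelled female, but those of D. simulans held 25.3 to 277 summed FPKM of 4 testis and accessory gland genes. D. sechellia larvae held such transcripts too, with dj at 30.7 to 112 FPKM and Mst98Cb at 23.9 to 74.1. Of the 2 genes of this list tested in larvae, 0 were called higher or lower in D. sechellia (median -0.05).

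In adults, IM2 stood among the more abundant transcripts of D. sechellia and was moderate in D. simulans. In D. sechellia adults IM2 ranged from 4392 to 11937.5 FPKM with a median of 5732, against 93.6 to 1402 with a median of 121 in D. simulans adults. The means were 6505 ± 2193 and 228.2 ± 370 FPKM (SD, n = 12 each). The 2 species did not overlap, which held in this direction for 45.0% of genes in adults. Ordered by FPKM within each library, IM2 had a median place of 45.5 in D. sechellia and 490 in D. simulans. The log2 difference was 5.39 (SE 0.28), or 4.60 after rescaling. Of 6420 genes tested in adults, 67.2% were called higher and 4.92% lower in D. sechellia (limma, adjusted p under 0.05).

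IM4 had more FPKM than IM2 in adults of both species. FPKM is per length, but the transcript lengths used are not given, so this comparison between genes is uncertain. In D. sechellia adults IM4 ranged from 5709 to 18207 FPKM with a median of 9670, against 479 to 2586 with a median of 537 in D. simulans adults. The means were 10585 ± 3524 and 737.7 ± 594 FPKM (SD, n = 12 each). The species again did not overlap, and the log2 difference was 3.98 (SE 0.24), or 3.19 after rescaling.

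**Figure D1:**
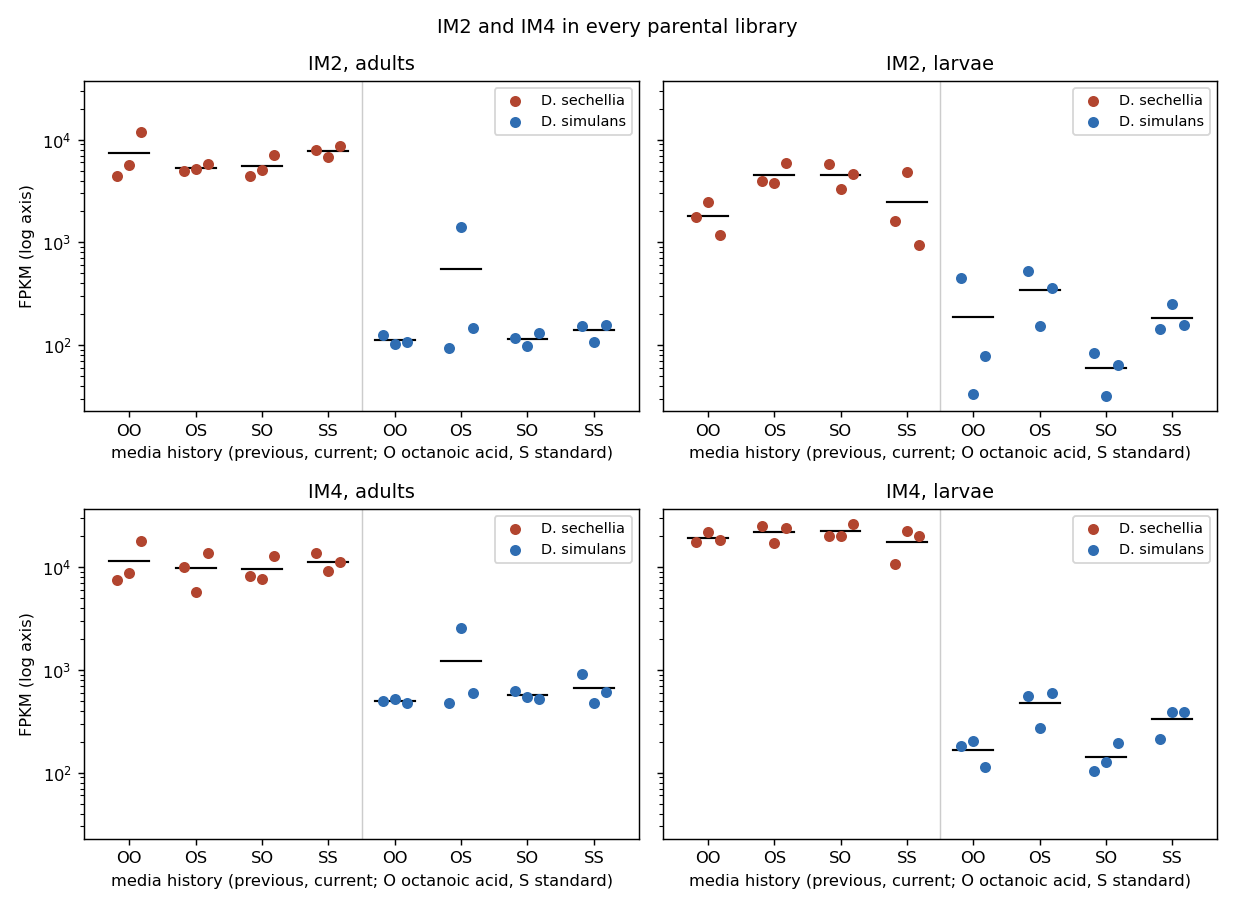
FPKM of IM2 (top) and IM4 (bottom) on a log axis in every parental library, by media history, with adults left and larvae right; points are replicates and black lines are means of 3. All 12 D. sechellia libraries lie above all 12 D. simulans libraries in each panel, and 1 D. simulans adult library of history OS stands at 1402 FPKM of IM2.

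In larvae the gene with the wider gap between the species was IM4. In D. sechellia larvae IM4 ranged from 10711 to 26611.5 FPKM with a median of 20353.5, against 104 to 593 with a median of 208 in D. simulans larvae. Its median place within a library was 7.5 in D. sechellia larvae and 316 in D. simulans larvae. IM4 was thus one of the most abundant transcripts of the table in D. sechellia larvae. The log2 difference was 6.39 (SE 0.22), or 5.76 after rescaling.

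IM2 in D. sechellia larvae ranged from 948 to 5861 FPKM with a median of 3562, against 31.8 to 526.4 with a median of 147.7 in D. simulans larvae. The log2 difference was 4.40 (SE 0.38), or 3.78 after rescaling. The species did not overlap in either gene, which held in this direction for 29.4% of genes in larvae. Of 7167 genes tested in larvae, 49.4% were called higher and 6.36% lower in D. sechellia. IM2 varied more among larval than among adult libraries. The highest D. sechellia larval library had 6.18 times the IM2 of the lowest, against 2.72 times among adults of that species.

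Markers of the fat body, the main source of these peptides in D. melanogaster, moved with species and stage. The 4 markers in the table are apolpp, Fbp2, Lsp1beta and Lsp1gamma, all above 0 in every parental library. They summed to 256 to 1873 FPKM in D. sechellia adults and 72.9 to 188 in D. simulans adults. In larvae the order was the other way, with 8702 to 22316 FPKM in D. sechellia and 16796 to 27491 in D. simulans. Among them apolpp, the lipid carrier of the haemolymph, had medians of 103 and 88.4 FPKM in D. sechellia and D. simulans adults. The 3 storage-protein genes Fbp2, Lsp1beta and Lsp1gamma were called higher in D. sechellia adults. The 6 haemocyte markers summed to 24.3 to 68.0 FPKM in D. sechellia adults and 28.6 to 60.7 in D. simulans adults. In larvae they summed to 92.4 to 181 FPKM in D. sechellia and 49.2 to 147 in D. simulans. The larval sums were carried by PPO2, a prophenoloxidase of crystal cells, with 58.5 to 99.0 FPKM in D. sechellia larvae, against 2.81 to 26.4 in D. simulans larvae. The other 5 leaned the other way: of the 6 markers 1 was called higher and 4 lower in D. sechellia larvae (median -0.66), and 1 higher and 3 lower in D. sechellia adults (median -0.46). The part of either cell type in the levels of IM2 and IM4 was not tested.

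In D. sechellia the 2 transcripts differed between the stages in opposite directions on the deposited scale. With the levels given above, IM2 was higher in adults than in larvae by 1.12 (SE 0.34, limma adjusted p = 0.0033). This call ended with rescaling (0.80, adjusted p = 0.058) and without replicate 3 of every group (0.79, adjusted p = 0.143). IM4 was lower in D. sechellia adults than in larvae by a log2 difference of -0.99 (SE 0.24, adjusted p = 0.00023), and it stayed lower after rescaling (-1.31, adjusted p = 9e-06). Of 7490 genes tested, 38.0% were called higher and 32.2% lower in D. sechellia adults. The largest adult value of IM4 was 18207 FPKM and 9 of 12 larval libraries lay above it.

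In D. simulans IM4 was higher in adults than in larvae, by 1.42 (SE 0.24, adjusted p = 5.6e-07), and by 1.19 after rescaling. There, 32.4% of genes were called higher and 34.9% lower in adults. For IM2 the difference in D. simulans was 0.13 (SE 0.34, 95% interval -0.56 to 0.82, adjusted p = 0.76). Whether the stage effect itself differed between the species was not tested, since the genes were proposed from the species difference. The summed fat body markers given above were far lower in adults than in larvae of either species, and their part in these stage differences was not tested.

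**Figure D2:**
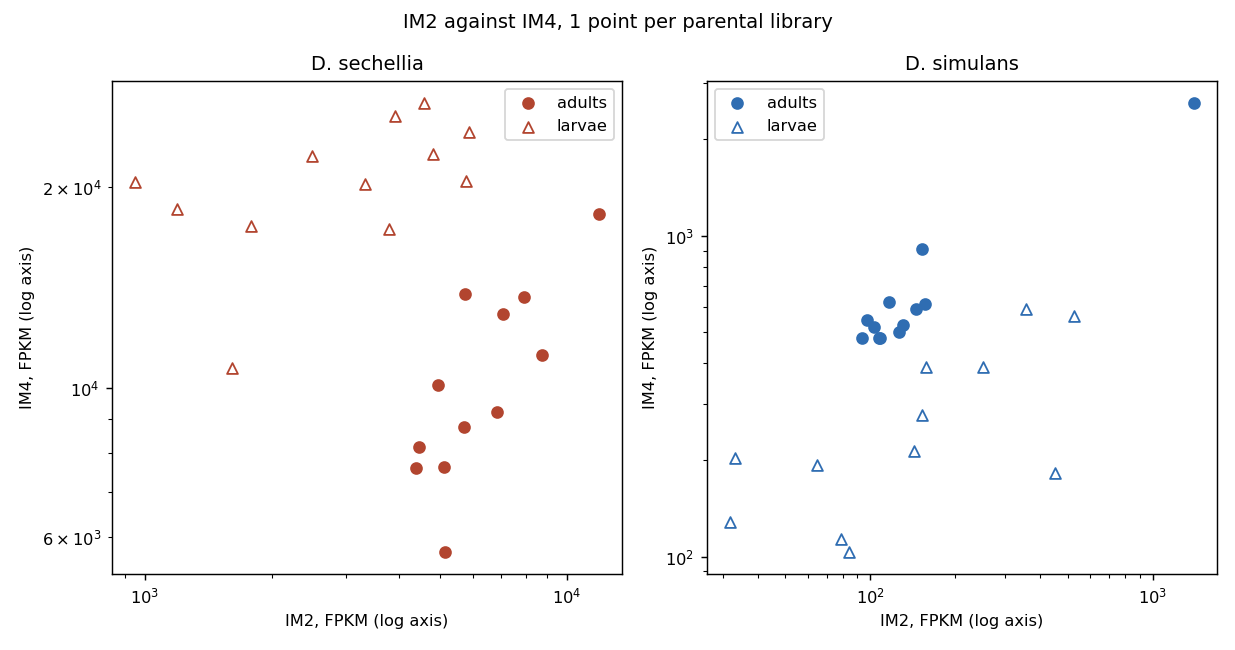
IM4 against IM2 in FPKM on log axes, with D. sechellia left and D. simulans right; filled circles are adult and open triangles larval libraries, 12 of each per species. D. sechellia larvae hold the lowest IM2 and the highest IM4 values of that species, and 1 D. simulans adult library lies apart at 1402 FPKM of IM2 and 2586 of IM4.

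In the parental adults, libraries with high IM2 tended to have high IM4. In D. simulans adults of history OS, replicate 2 had 1402 FPKM of IM2, where the other 11 libraries had 93.6 to 155.7. The same library had 2586 FPKM of IM4, where the others had 479 to 907. It was also the highest of the 12 for all 4 other immune-induced genes in the table, among them CG15065 with 1220 FPKM against 272 or less, and for 5 of 11 antimicrobial peptide genes. One of these was Mtk, which encodes the antifungal peptide metchnikowin, with 94.2 FPKM against 22.2 or less. Over all 5545 genes the library was highest for 5.32%. It was highest for 3 of 14 Toll pathway genes and for 0 of 12 Imd pathway genes. Among cell type markers it was highest for 1 of 4 of the fat body, apolpp with 128.7 FPKM against 120.4 or less, and for 2 of 6 of haemocytes. These were He with 9.53 FPKM against 8.24 or less and NimC1 with 5.232 against 5.198 or less. Their part in the levels of that library was not tested.

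Across the 12 adult libraries of D. sechellia, log2 levels of IM2 and IM4 correlated with a Pearson's r of 0.77 (permutation p = 0.0036, adjusted 0.0072) and a Spearman's rho of 0.76 (p = 0.0060, adjusted 0.016). Without the 2 libraries farthest in IM2 r was 0.66, and within media histories it was 0.78. In D. simulans adults r was 0.96 (permutation p = 0.0016, adjusted 0.0043) and rho 0.73 (p = 0.0099, adjusted 0.020). Within histories r was also 0.96, and it was 0.63 without the 2 farthest libraries, so its size rested on those. In D. sechellia larvae r was 0.51 (permutation p = 0.112, adjusted 0.149) and rho 0.62 (p = 0.036, adjusted 0.047). In D. simulans larvae r was 0.68 (permutation p = 0.016, adjusted 0.025) and rho 0.64 (p = 0.028, adjusted 0.044). Without the 2 farthest larval libraries r was 0.71 and 0.70, and within histories it was 0.34 and 0.28. The larval relation was thus weak within histories. These are among 8 relations computed, which were chosen after the values were seen, and both genes of a pair were measured in the same library.

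In the hybrids the D. sechellia allele of IM2 stood above every parental library of the same stage. The D. sechellia allele ranged from 16709 to 77863.8 FPKM in hybrid adults with a median of 25741.5, and from 6407 to 120035 in hybrid larvae with a median of 22939. It took place 1 to 3 in its allele columns in adults and 1 to 11 in larvae, where place 1 is the highest FPKM of the column. It made up 2.18% to 8.48% of the summed FPKM of its columns in adults and 0.991% to 15.2% in larvae. The 15.2% was the larval library SS replicate 2. There, the D. sechellia columns were highest for 3 of 3 other immune-induced genes and 5 of 10 antimicrobial peptide genes, against 6.82% of all genes. Among the 5 are AttA and AttB, both listed at 2408 FPKM there, so they are not separate measurements. Cell type and stage markers stood out in that column too. It was highest for the fat body markers Lsp1beta (230.7 FPKM against 130.3 or less) and Lsp1gamma (131.8 against 71.8 or less), not for apolpp and Fbp2. It was also highest for the haemocyte markers Pxn and vkg, not for NimC1, eater and PPO2. The larval cuticle gene Lcp4 had 20002 FPKM against 6125 or less. Their part in the IM2 level was not tested.

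IM2 as the sum of both alleles ranged from 17069.5 to 79286 FPKM in hybrid adults and from 6519 to 122120 in hybrid larvae. All 12 hybrid libraries of each stage lay above all 24 parental libraries. This held for 13.2% of genes in adults and for 3.15% in larvae. Against the mean of the parental log2 values, IM2 was higher in hybrid adults by 4.98 (SE 0.24, limma adjusted p = 5.4e-17) and in hybrid larvae by 5.22 (SE 0.33, adjusted p = 3.0e-14). Genes called higher than that mean were 51.8% in adults and 29.0% in larvae. The median over all genes was 0.46 in adults and -0.16 in larvae, and IM2 after rescaling was 4.15 and 5.17. The hybrid values were made from allele columns, and the sources used here do not say how reads were assigned to alleles. The part of that step in the hybrid levels was not tested.

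**Figure D3:**
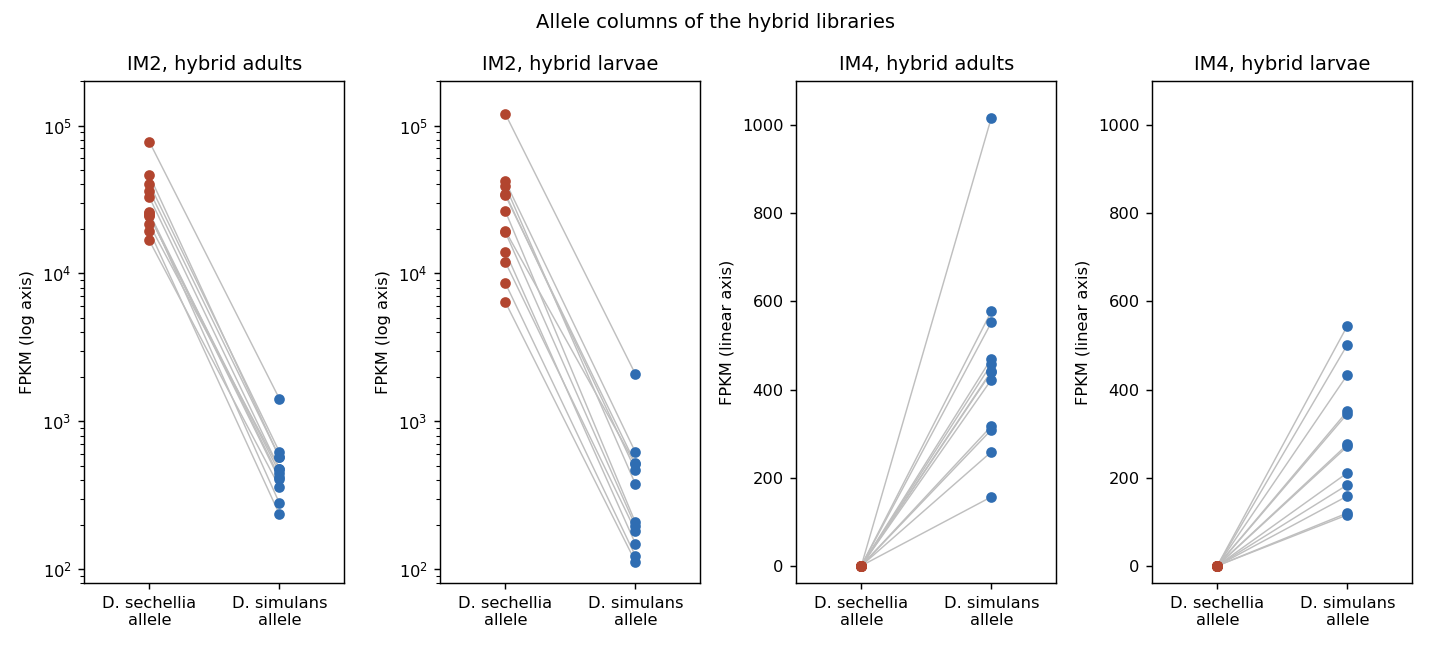
FPKM of the D. sechellia allele (left in each panel) and the D. simulans allele (right) in the 12 hybrid libraries of each stage, joined by a grey line per library; IM2 is on a log axis and IM4 on a linear axis. The D. sechellia allele of IM2 is above the D. simulans allele in all 24 libraries, and the D. sechellia allele of IM4 is listed at 0 in all 24.

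Within hybrid libraries the alleles of IM2 were far apart. The D. simulans allele ranged from 235 to 1423 FPKM in adults with a median of 464, and from 112 to 2085 in larvae with a median of 292. The D. sechellia allele, with the levels given above, was in FPKM 44.9 to 92.4 times as high in adults (median 62.3) and 38.1 to 128 times as high in larvae (median 69.0). With each allele column scaled to a total of 1000000, the log2 allelic ratio was 3.51 in adults (SE 0.14, limma adjusted p = 1.8e-08) and 5.02 in larvae (SE 0.23, adjusted p = 3.0e-08). The D. sechellia allele was higher in 12 of 12 libraries of each stage. Genes called with a higher D. sechellia allele were 21.2% in adults and 12.3% in larvae. On the same scale the parental ratio of IM2, D. sechellia over D. simulans, was 4.01 in adults and 2.97 in larvae. It is a description and was not tested against the allelic ratio.

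The scaled allelic ratio was lower in hybrid adults than in hybrid larvae by a log2 difference of -1.51 (SE 0.26, limma adjusted p = 0.00020), a comparison added after the values were seen. Of 7336 genes tested, 5.48% were called lower in adults. With both columns of a library scaled by their shared total the difference was -0.21 (adjusted p = 0.425). The D. sechellia columns summed to 766311 to 1034077 FPKM in adults and 462871 to 788263 in larvae, and the D. simulans columns to 122009 to 192420 and 216070 to 322606.

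Both alleles of IM2 were high in the same hybrid libraries. Across hybrid adults their log2 levels correlated with r = 0.87 (permutation p = 0.00066, adjusted 0.0026) and rho = 0.80 (p = 0.0032, adjusted 0.013). Across hybrid larvae r was 0.92 (permutation p = 0.00010, adjusted 0.00080) and rho 0.91 (p = 0.00014, adjusted 0.0011). Without the 2 farthest libraries r was 0.70 and 0.83, and within histories it was 0.87 and 0.92. The highest IM2 of both alleles was in OO replicate 1 among adults and in SS replicate 2 among larvae. The D. sechellia allele had a median of 62.3 times the FPKM of the D. simulans allele in adults and 69.0 times in larvae. A small share of its reads assigned to the other allele would therefore weigh on the D. simulans column. How reads were assigned is not stated, and the part of that step in the correlation of the alleles was not tested. The D. simulans alleles of IM2 and IM4 correlated with r = 0.40 in adults (permutation p = 0.184, adjusted 0.210) and 0.20 in larvae (permutation p = 0.532, adjusted 0.532). The rho was 0.20 in adults (p = 0.529, adjusted 0.604) and 0.098 in larvae (p = 0.771, adjusted 0.771). Without the 2 farthest libraries r was -0.09 in adults and -0.15 in larvae, and within histories 0.55 and 0.25. No relation was called there, and 12 libraries per stage are too few to exclude a moderate one.

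IM4 gave no allelic ratio. Its D. sechellia allele was listed at 0 in all 24 hybrid libraries, while D. sechellia itself averaged 15532 FPKM over both stages. An allele at 0 in all 24 libraries was listed for 19 of 210 genes (9.05%) whose mean in D. sechellia reached 1000 FPKM, and for 1 of 93 (1.08%) on the D. simulans side. Among the 19 genes IM4 had the third highest D. sechellia mean, after RpL39 and RpL29, and RpL23A, RpL30 and RpS27A were also among them. These 5 others encode ribosomal proteins, which every cell uses. CG14645 and sesB were among the 19 as well. Whether the 0 of IM4 reflects a silent allele or the assignment of reads was not tested. The D. simulans allele of IM4 ranged from 156 to 1017 FPKM in hybrid adults with a median of 441, and from 116 to 545 in hybrid larvae with a median of 273. The D. simulans libraries had medians of 537 FPKM in adults and 208 in larvae. Adults were higher than larvae for this allele by 0.66 (SE 0.24, limma adjusted p = 0.0097), where 52.9% of all genes were called higher. After rescaling the difference was -0.46, the other way. For IM2 the hybrid stage difference was 0.38 (SE 0.34, adjusted p = 0.30).

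The media tests ask whether feeding on octanoic acid, in the fly's own or its parents' generation, changed the RNA of these genes. Neither gene was called for the current medium, the previous medium or their interaction in any genotype or stage (limma, adjusted p under 0.05). Few genes of any kind were called in the parental species. For the current medium 0.0156% of genes were called in D. sechellia adults and 0 in D. simulans adults, where 15 genes had an unadjusted p under 0.05. In larvae these were 0 in D. sechellia, with 26 genes under that unadjusted p, and 0.0140% in D. simulans. In hybrids 6.73% were called in adults and 0.949% in larvae. For the previous medium 0.0779% were called in D. sechellia adults, 0 in D. simulans adults (21 genes at an unadjusted p under 0.05) and 1.70% in hybrid adults. In larvae they were 0.0140% in D. sechellia, 0.293% in D. simulans and 0.670% in hybrids. For the interaction the share called was highest in hybrid adults, at 1.48%, and 0.781% in hybrid larvae. In the parental species it was at most 0.0623%, and it was 0 in D. simulans adults and in D. sechellia larvae, where 8 and 179 genes had an unadjusted p under 0.05.

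The gene nearest to a call was IM4 in D. simulans larvae. The 6 libraries on octanoic acid in the current generation had 104, 128 and 193 FPKM (history SO) and 182, 203 and 113 FPKM (OO), against 214, 390 and 390 (SS) and 561, 275 and 593 (OS) in the 6 on standard medium. These groups did not overlap, which held in this direction for 3 genes, or 0.0419%. The log2 difference was -1.35 (SE 0.31, 95% interval -1.99 to -0.70), with an unadjusted p of 0.00019, the smallest but 2 of 7167 genes. Adjusted by limma over all genes it was 0.459, and between 0.366 and 1 over the alternatives, so it is reported as not called. Markers moved with it in the same larvae, with none of them called. The haemocyte markers were lower on octanoic acid in 6 of 6 (median -0.51, against -0.03 over all genes) and summed to 49.2 to 147 FPKM on octanoic acid, against 84.9 to 147 on standard medium. Of the 4 fat body markers 3 were lower (median -0.18), with sums of 16796 to 27491 FPKM on octanoic acid and 16964 to 24922 on standard medium. Both larval cuticle genes in the table, Lcp1 and Lcp4, were lower as well (median -0.80). The part of these markers in the difference of IM4 was not tested. Other immune genes did not move together in this contrast. Of the 4 other immune-induced genes 0 were higher on octanoic acid (median -0.58), while 12 of 16 antimicrobial peptide genes were higher (median 0.24). None of these was called.

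IM2 in the same larvae had 31.8 to 450.8 FPKM on octanoic acid with a median of 71.5, against 143 to 526.4 with a median of 204 on standard medium. The groups overlapped, and the difference was -1.59 (SE 0.54, adjusted p = 1). In D. sechellia larvae the differences were -0.08 (SE 0.54) for IM2 and 0.10 (SE 0.31) for IM4, each with an adjusted p of 1. The effect in D. sechellia minus that in D. simulans was 1.45 for IM4 (SE 0.44, 95% interval 0.54 to 2.36, adjusted p = 1.00) and 1.51 for IM2 (SE 0.76, interval -0.05 to 3.07, adjusted p = 1.00). In that comparison 0 of 7167 genes were called and 28 had an unadjusted p under 0.05. For the previous medium the larval effects differed between the species by -0.93 for IM2 (SE 0.76) and -0.28 for IM4 (SE 0.44), with 0 genes called and 553 at an unadjusted p under 0.05.

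**Figure D4:**
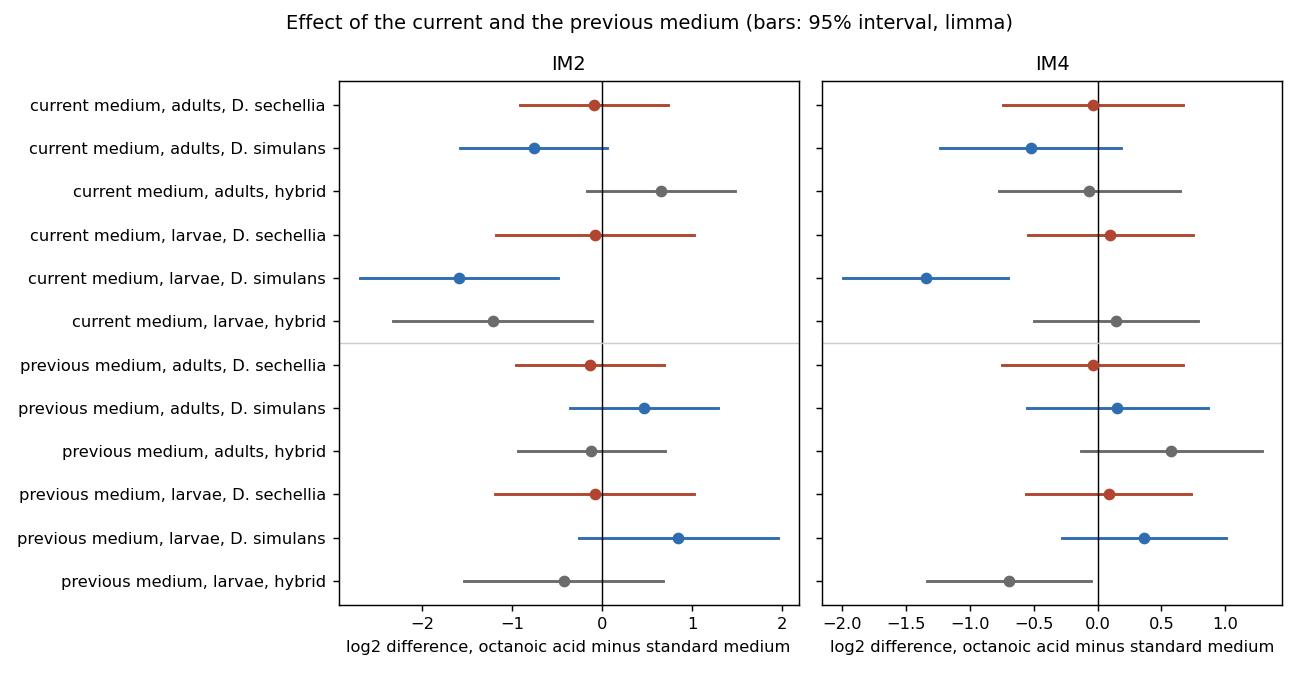
Log2 difference of octanoic acid minus standard medium for IM2 (left) and IM4 (right), for the current medium (upper rows) and the previous medium (lower rows), by stage and genotype; bars are 95% intervals. The interval of IM4 in D. simulans larvae for the current medium, -1.99 to -0.70, lies farthest from 0 of those shown.

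Hybrid larvae had 6519 to 34295 FPKM of IM2 on octanoic acid in the current generation with a median of 16046, against 14206 to 122120 with a median of 37314 on standard medium. The groups overlapped, and the difference was -1.21 (SE 0.54, limma adjusted p = 0.30). Their IM4, all from the D. simulans allele, differed by 0.15 (SE 0.31, adjusted p = 0.89). For the previous medium IM4 of hybrid larvae had 120 to 351 FPKM on octanoic acid with a median of 197, against 116 to 545 with a median of 389. That difference was -0.69 (SE 0.31, adjusted p = 0.41).

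In adults the 95% intervals of all 6 differences for the current medium included 0. In D. sechellia adults they were -0.09 for IM2 (95% interval -0.91 to 0.73) and -0.04 for IM4 (-0.74 to 0.67). In D. simulans adults they were -0.76 for IM2 (-1.58 to 0.06) and -0.52 for IM4 (-1.23 to 0.18), and leaving out replicate 2 of history OS brought them to -0.16 and -0.14. In hybrid adults they were 0.65 for IM2 (-0.16 to 1.47, adjusted p = 0.31) and -0.06 for IM4 (-0.77 to 0.64). The effect in D. sechellia minus that in D. simulans adults was 0.67 for IM2 (SE 0.56) and 0.49 for IM4 (SE 0.49), where 0.0156% of genes were called. For the previous medium the 6 adult differences of the 2 genes lay between -0.13 and 0.58. Their D. sechellia minus D. simulans values were -0.60 for IM2 (SE 0.56) and -0.19 for IM4 (SE 0.49), where 0.0312% were called.

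In D. sechellia larvae the levels of IM2 by history were crossed, below the threshold of the test. IM2 had 1785, 2494 and 1191 FPKM in OO, 3916, 3802 and 5861 in OS, 5763, 3323 and 4581 in SO, and 1614, 4820 and 948 in SS. The groups with a change of medium between generations, OS and SO, thus had the higher medians. The interaction was -2.54 (SE 1.08, unadjusted p = 0.026), and its adjusted p was 1. No gene was called in that contrast, where 179 had an unadjusted p under 0.05. The allelic ratio of IM2 was also not called for either medium, with differences of -0.15 and 0.26 in adults and -0.24 and 0.13 in larvae for the current and the previous medium. Over all genes 0 were called in adults for either medium, with 312 and 303 at an unadjusted p under 0.05, and 0.0572% in larvae for each.

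Of 38 names of immune-induced genes listed from D. melanogaster, 6 are in the table: IM2, IM4, IM33, CG15065, CG15067 and CG16836. Of the 4 others, 4 were called higher in D. sechellia adults than in D. simulans adults, also after rescaling, where 67.2% of all genes were called higher on the deposited scale. IM33 had 5314 to 9180 FPKM in D. sechellia adults, against 576 to 798 in D. simulans adults, a difference of 3.56. CG16836 differed by 4.76, CG15067 by 3.29 and CG15065 by 2.56. In larvae 3 of 4 were called higher in D. sechellia, where 49.4% of all genes were, and 2 after rescaling, when CG16836 no longer passed (0.88, adjusted p = 0.19). CG15065 differed by -0.37 in larvae (adjusted p = 0.82).

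**Figure D5:**
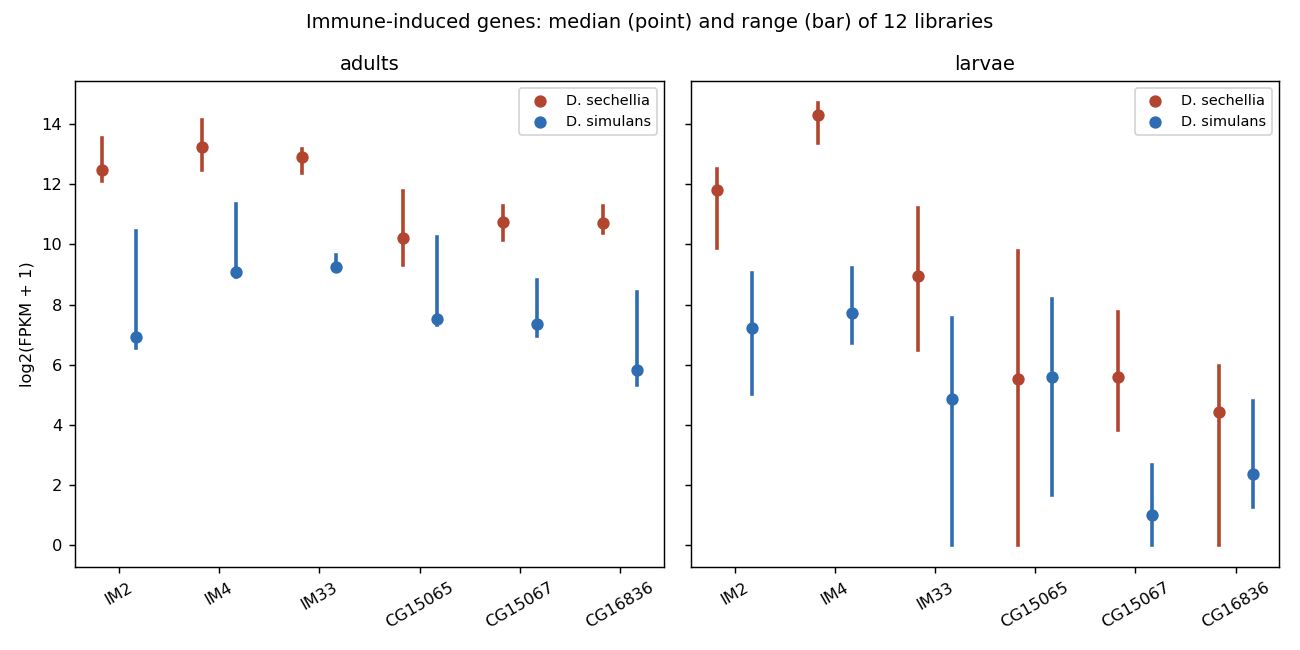
Median (point) and range (bar) of log2(FPKM + 1) over 12 libraries for the 6 immune-induced genes in the table, adults left and larvae right, with D. sechellia left of D. simulans at each gene. IM2 and IM4 keep high levels in D. sechellia larvae, where CG15065, CG15067 and CG16836 have medians of 45.2, 47.1 and 20.5 FPKM.

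By stage the 4 others did not follow IM4 of D. sechellia. In D. sechellia 4 of 4 were called higher in adults, against 38.0% of all genes, by 6.81 for CG16836, 5.75 for CG15065, 5.09 for CG15067 and 3.91 for IM33. In D. simulans 4 of 4 were called higher in adults as well, against 32.4% of all genes, and both counts held after rescaling. The D. sechellia allele of CG15065 had 2861 to 31645.5 FPKM in hybrid adults with a median of 14585, against 637 to 3468 in D. sechellia adults. That of IM33 had a median of 217 FPKM in hybrid adults, against 7657 in D. sechellia adults. In the allelic ratio of adults 3 of 4 were called higher for the D. sechellia allele, against 21.2% of all genes. They were CG15067 (1.50), CG15065 (1.23) and CG16836 (1.19). In larvae this did not hold. Of 3 tested there, 1 was called higher and 2 lower for the D. sechellia allele (median -3.58, against -0.47 over all genes). Of all genes 12.3% were called higher in larvae, and 3487 of 6994 were called in either direction. Listed values of 0 enter these larval ratios. The D. sechellia allele was at 0 in 9 of 12 hybrid larval libraries for CG15065 and in 4 of 12 for CG16836. The D. simulans allele of CG15067 was at 0 in all 12. The part of these zeros in the larval ratios was not tested.

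Counts over the lists of immune genes around IM2 and IM4 stand against a background in which 67.2% of all genes were called higher in D. sechellia adults and 49.4% in D. sechellia larvae on the deposited scale. After rescaling 2033 of 6420 genes were called higher and 1622 lower in adults, and 2042 and 1676 of 7167 in larvae. Among antimicrobial peptide genes other than these, 11 were called higher and 1 lower of 14 in adults (median 2.26, against 0.72 over all genes), and 13 higher and 1 lower of 16 in larvae (median 3.98, against 0.56). After rescaling the counts were 9 and 1 in adults and 11 and 2 in larvae. AttA and AttB are separate entries of this list but have the same range and median in D. sechellia at each stage. AttC, an attacin, had 153 to 1381 FPKM in D. sechellia adults, against 1.69 to 25.9 in D. simulans adults. DptA, a diptericin, was the gene called lower in both stages on the deposited scale. In larvae it had 5.22 to 30.9 FPKM in D. sechellia, against 500.4 to 2143 in D. simulans.

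Of 15 Toll pathway genes 12 were called higher and 1 lower in D. sechellia adults (median 1.22), and 7 and 4 after rescaling. In larvae they were 7 and 1 (median 0.48), a share near that of all genes, and 2 and 3 after rescaling, which turned the balance. Dif, a transcription factor of the Toll pathway, had 12.9 to 27.1 FPKM in D. sechellia adults and was listed at 0 in all 12 D. simulans adult libraries. In hybrid adults, however, its D. simulans allele reached 10.1 FPKM, with a median of 0 over the libraries other than OO replicate 1. Dif was also at 0 in all 6 D. simulans larval libraries on each current medium, so the 0 is not particular to adults. Why Dif is listed at 0 in D. simulans was not tested. Of 12 Imd pathway genes 10 were called higher and 0 lower in adults (median 0.90) and in larvae (median 0.96). After rescaling they were 4 and 2 in adults and 5 and 0 in larvae. In the media contrasts hardly a member of these lists was called: 1 Imd gene was lower in hybrid adults for the current medium, and 1 antimicrobial peptide gene each was lower in D. simulans and in hybrid larvae for the previous medium.

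Over all 72 libraries the genes most like IM2, among 5742 with a mean of at least 5 FPKM, were Ady43A (r = 0.94), CG32641 (0.93), CG43103 (0.93), CG15362 (0.93) and Bet5 (0.93). Those most like IM4 were RpS26 (0.94), CG12081 (0.93), RpS27 (0.93), CG42231 (0.92) and Snapin (0.91). These follow the order of the genotypes, including the low hybrid values of IM4 made by the allele listed at 0. IM2 and IM4 themselves correlated with r = 0.15. In deviations from the 24 group means, which leave out stage, genotype and history, the genes most like IM2 were CG7763 (0.65), CG34337 (0.62), CG13749 (0.60), DptB (0.56) and Listericin (0.53). DptB encodes a diptericin and Listericin an antibacterial peptide. Those most like IM4 were CG18067 (0.53), NimC2 (0.52), Ipk1 (0.51), DptA (0.51) and Irc (0.50). With r = 0.50 between them, IM2 held place 6 for IM4 and IM4 held place 22 for IM2. The correlations are descriptions over libraries that share groups.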

How the data were processed

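The authors deposited FPKM per gene in a table with 48 columns of parental libraries and 48 columns of alleles, a pair for each of 24 hybrid libraries. FastQC, Bowtie2 and Cufflinks were used, per the submitters' processing notes. Tool versions, genome build, annotation and allele assignment were not given in the sources used here. Read depth is unknown, since FPKM keep no count. No sequences or coordinates are given, as 0 of 7836 names matched the gene table at hand.

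A hybrid level is the sum of its allele columns, for IM4 the D. simulans allele alone. Genes that reached 1 FPKM in 3 or more libraries were tested on log2(FPKM + 1), which understates changes of low genes. The test was limma 3.58.1 in R 4.3.3, two-sided, with a mean-variance trend and Benjamini-Hochberg adjustment over the genes of 1 contrast. Each stage was fitted alone (36 libraries, 12 group means). Stage was fitted over all 72. Alleles were compared within hybrid libraries, each allele column scaled to a total of 1000000. IM4 was not tested against the parental mean or for its allelic ratio, a departure from the planned tests, because its D. sechellia allele is listed at 0. Correlations used 100000 permutations (scipy 1.17.1, numpy 2.4.6, Python 3.11.15) and adjustment over 8 relations.

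Alternatives were median-ratio rescaling, a pseudocount of 0.1, no filter, limma with no trend, the replicate number as a block, the libraries of 1 genotype alone, other scalings of the alleles, and each library left out. Named genes are IM2, IM4, the other immune-induced genes of the table, up to 3 called genes of smallest p per list, and the 5 most alike. The libraries described one by one were chosen after their values were seen. The members and lists were chosen with earlier results of these data known. The pipeline was tested on simulated data. Replicates are labelled biological, and where the pools came from is not stated, so p-values measure the spread between these libraries.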

Additional observations from a re-analysis of the deposited data

Results flagged for a closer look

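The allelic ratio of IM2 differed between hybrid adults and hybrid larvae in a direct test with 1 of the scalings tried. The log2 ratio, D. sechellia allele over D. simulans allele with each column scaled to its own total, averaged 3.51 ± 0.36 over 12 adult libraries and 5.02 ± 0.51 over 12 larval libraries (SD), a difference of -1.51 (limma adjusted p = 0.00020). Leaving out 1 hybrid library at a time gave -1.61 to -1.41. The call rests on that scaling: with both columns of a library scaled by their shared total the difference was -0.21 (adjusted p = 0.425), and unscaled it was -0.21 (adjusted p = 0.428). In FPKM as deposited the ratio was 44.9 to 92.4 in adults and 38.1 to 128 in larvae, and these ranges overlap. The comparison was added after the values were seen.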

How the results depend on the processing

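Leaving out the filter, a pseudocount of 0.1, limma with no trend, the libraries of 1 genotype alone and the replicate block changed no call and no direction of IM2 or IM4. Replicate numbers were not taken to pair the samples, since in no genotype and stage did every pair of same-numbered libraries correlate above 0.1 in its deviations from the group means. In D. simulans larvae such pairs did lean together, with a median of 0.37 (-0.072 to 0.76), against -0.15 for other pairs. With the replicate block IM4 in D. simulans larvae still differed by -1.35 for the current medium (adjusted p = 0.386). Median-ratio rescaling lowered the described species differences to 4.60 (IM2) and 3.19 (IM4) in adults and to 3.78 (IM2) and 5.76 (IM4) in larvae. For stage it gave 0.80 for IM2 in D. sechellia, no longer called, and turned IM2 to -0.093 in D. simulans and -0.75 in hybrids, and IM4 of hybrids to -0.46. It also turned the current medium effect on IM4 in hybrid adults to 0.086 and the interaction for IM2 in hybrid larvae to -0.070, none of them called. With the libraries of 1 genotype alone and rescaling, chosen after seeing the data, these 2 were 0.088 and -0.056, and the previous medium effect on IM4 in D. sechellia larvae was -0.000205. From the D. simulans allele column alone, also added later, IM4 in hybrid adults differed by 0.16 for the current medium. The effect of the current medium on the allelic ratio of IM2 in adults was 0.26 with a shared total and 0.26 unscaled, and the ratio in adults minus larvae was -0.21 with either, no longer called. The cause was not tested.

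Leaving out 1 library at a time turned these small differences, none of them called. In D. sechellia adults the ranges for the current medium were -0.30 to 0.065 (IM2) and -0.23 to 0.11 (IM4), and for the previous medium -0.34 to 0.019 and -0.23 to 0.14. In D. simulans adults those for the previous medium were -0.13 to 0.84 and -0.22 to 0.38, and for the interaction -1.75 to 0.20 and -1.12 to 0.10; OS replicate 2 gave the turned value in all 4. For the previous medium IM4 of D. sechellia minus D. simulans adults ranged from -0.42 to 0.18. In hybrid adults IM4 for the current medium ranged from -0.32 to 0.15 and IM2 for the previous medium from -0.35 to 0.045. In larvae the interaction in D. simulans ranged from -0.90 to 0.96 (IM2) and -0.62 to 0.023 (IM4), and that of hybrid IM2 from -0.41 to 0.92. In D. sechellia larvae the current medium gave -0.34 to 0.25 and -0.065 to 0.20, and the previous medium -0.34 to 0.25 and -0.079 to 0.19. IM4 of hybrid larvae for the current medium ranged from -0.17 to 0.39, and the allelic previous medium effect on larval IM2 from -0.055 to 0.35. Leaving out a replicate number, the stage difference of IM2 was 0.79 to 1.34 in D. sechellia and -0.45 to 0.67 in D. simulans, and that of IM4 from 0.37 to 0.95 in hybrids, called without replicate 2 only.

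Counts of called genes also moved over the alternatives. In hybrids those for the current medium were 432 in adults, 0 to 433 over the alternatives, and 68 in larvae, 3 to 144. For the previous medium they were 109 (0 to 115) and 48 (3 to 82), and for the interaction 95 (0 to 115) and 56 (2 to 79). In D. simulans larvae 21 genes were called for the previous medium, and 1 to 57 over the alternatives. In D. sechellia adults the previous medium gave 5 (0 to 16), the current medium 1 (0 to 9) and the interaction 4 (1 to 10). Allelic ratios gave 3041 in adults (1503 to 4655) and 1891 for adults minus larvae (1648 to 4642). FPKM keep no depth, so counting error is not covered, and 12 libraries of a genotype and stage limit the precision.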
